A study of Morone chrysops with 54 samples.

Results

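Livers of juvenile white bass (Morone chrysops) fed Diet 6 (Pro-Cision™ + SBM) were compared with those of fish fed Diet 3 (low FM + PBM + SBM), where FM is fish meal, PBM is poultry by-product meal and SBM is soybean meal. Pro-Cision™ is a commercial protein blend, and Diet 6 is labelled as the test of a commercial ingredient. These are 18 of the 54 RNA-seq libraries of the study, 9 per diet and 1 per fish, taken by their diet labels. All fish were fed for 60 days, and 3 fish were taken from each of 3 tanks per diet, so that fish of 1 tank shared their water and feed. Both groups received soybean meal, and they differ in more than 1 ingredient, so that no difference can be given to a single one. Of 20914 contigs in the transcriptome, 9930 reached a mean of 5 counts over these 18 libraries and were tested. Gene names are those of the tables of differentially expressed genes (DEGs) of the study, which list contigs called against Diet 1 (standard FM) on these libraries, and 973 of the tested contigs had such a name. Counts of named members are therefore no independent evidence of direction or of an excess over all tested contigs. Levels are given in CPM, the counts of a contig scaled to a common library size, and since CPM is not corrected for contig length, levels are compared between fish and not between genes.

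The liver makes most plasma proteins, and it is the source of hepcidin, the peptide hormone that in mammals binds the iron exporter ferroportin and lowers the release of iron from cells. Several fishes carry more than 1 hepcidin gene, and some of their hepcidins act as antimicrobial peptides. The liver also makes bile acids from cholesterol, a process that in mammals is restrained by fibroblast growth factor 19 (FGF19), a hormone acting through its receptor FGFR4. Glutathione, the main thiol of the cell, is built from glutamate, cysteine and glycine, and its first step is catalysed by glutamate-cysteine ligase.

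Libraries of fish fed Diet 3 held 8797403 to 13489749 counts (median 12671178), and those of fish fed Diet 6 held 5964761 to 16228574 (median 12539625). The mean total with Diet 6 was 1.096 times that with Diet 3, a difference that did not pass a two-sided exact permutation test over 48620 splits (p = 0.375). The least similar library was Diet 6 replicate 7, with a median correlation of 0.880 to the other fish of its diet, against 0.909 or more for each other fish of both diets. All 8 markers of hepatocytes lay lower with Diet 6, and their mean log2 CPM ran from 9.91 to 11.15 (median 10.40) with Diet 6 and from 10.83 to 11.49 (median 11.25) with Diet 3. In 8 of the 9 fish fed Diet 6 this mean was below that of every fish fed Diet 3. These markers were drawn from contigs called in the study on these libraries, so that their shared direction is no separate evidence. In whole liver, fewer cells of a type and less RNA per cell cannot be told apart.

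Between the diets 49 contigs were DEGs (0.493% of those tested), of which 20 were higher (0.201%) and 29 were lower (0.292%) in fish fed Diet 6. A DEG had a Benjamini-Hochberg adjusted p under 0.05 in the quasi-likelihood test of edgeR and a change of more than 1.5-fold. Of these DEGs, 40 had a name, 15 of them higher and 25 lower, out of 973 tested contigs with a name. The gene lists below hold named contigs, so that this share is their nearer background. The median log2 fold change of all tested contigs was 0.01, and 1354 of them (13.6%) had an unadjusted p under 0.05. In 13 contigs (0.131%) the CPM of the diets did not overlap, and 8 of these were DEGs. Each library name carries an L tag and a T tag, each with 3 values per diet. The difference had the same sign within all 3 L tags in each of the 49 DEGs, as it had in 35% of all tested contigs. The means of the 3 T tags, each of 3 fish, were apart between the diets in each of the 49 DEGs, as they were in 17% of all tested contigs. The DEGs were selected by their difference over these same fish, so that neither tag gives separate support.

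The number of DEGs depended strongly on single fish. It was 2 without Diet 6 replicate 9, these being FGF19 and hepcidin, and 120 without Diet 6 replicate 4. Without Diet 6 replicate 1, 2, 3, 5 or 8 it was 31, 21, 14, 11 and 15, and without replicate 6 or 7 it was 43 and 35. Without Diet 3 replicate 1, 2, 3, 4, 8 or 9 it was 12, 10, 18, 32, 15 and 15, and without replicate 5, 6 or 7 it was 37, 53 and 59. FGF19 and hepcidin were DEGs in all 18 of these fits, 6 further contigs in 17 and another 7 in 13 to 16, while 13 contigs were DEGs in 6 to 12 and 21 in 5 or fewer. No DEG changed its sign in any of them, but the DEGs were selected by their difference over these same fish. Without both Diet 6 replicates 1 and 7, a choice made after the data were seen, 8 contigs were DEGs, 5 of them among the 49. With the L tag as a covariate 26 of the 49 were DEGs. With the counts of the 3 fish of each T tag summed, so that 3 sums stood against 3, clusterin was the only DEG. With limma and the T tag as a block, 58 contigs were DEGs, 41 of them among the 49. The correlation within T tags in that fit was -0.0038, a consensus over contigs that does not give the value of a single contig. Between the T tags of Diet 3, 8.07% of 9505 contigs had an unadjusted p under 0.05 by edgeR. With Diet 6 it was 3.53% of 10273, and no contig of either diet had an adjusted p under 0.05. What the T tag stands for is not stated, although it divides the fish as the tanks would.

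**Figure D1:**
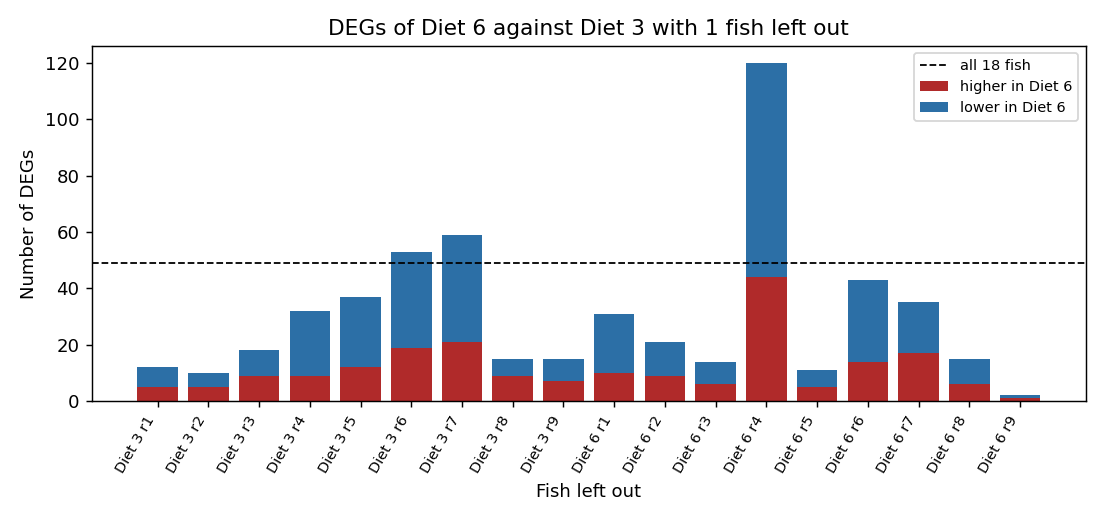
Number of DEGs of Diet 6 against Diet 3 (y axis) when the fish named on the x axis was left out (r1 is replicate 1), stacked as contigs higher (red) and lower (blue) in fish fed Diet 6, with the 49 DEGs of all 18 fish as a dashed line. The counts run from 2 without Diet 6 replicate 9 to 120 without Diet 6 replicate 4.

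Contigs of iron handling were among the DEGs in both directions. Of 12 tested members, 1 rose and 4 fell in fish fed Diet 6. DEGs made up 0.493% of all tested contigs and were 40 of the 973 with a name. A log2 fold change below 0 was seen in 10 of the 12 (median -0.66), while 51.7% of all tested contigs lay above 0. The list was drawn from contigs called in the study on these libraries, so that its counts and their direction are no separate evidence. Hepcidin was 6.39-fold higher, while solute carrier family 40 member 1 (SLC40A1, ferroportin, an exporter of iron from cells) was 2.62-fold lower. Transferrin receptor protein 1 (TfR1), which takes up iron bound to transferrin, fell as well, as did ceruloplasmin, the copper ferroxidase of plasma.

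Hepcidin lay between 23.4 and 204 CPM in fish fed Diet 3 (median 104) and between 219.5 and 1060 CPM in fish fed Diet 6 (median 726). Every fish fed Diet 6 was thus above every fish fed Diet 3. The log2 fold change was 2.68 ± 0.42 (SE, n = 9 per diet), with an adjusted p of 0.0124, and the highest adjusted p over the 18 fits without 1 fish was 0.0335. With counts summed per T tag the adjusted p was 0.271. Fish fed Diet 1 had a median of 66.0 CPM and a highest value of 144 CPM. A second contig, hepcidin 2 variant 2, moved the other way, from a median of 8.11 CPM (1.66 to 18.2) with Diet 3 to 1.18 CPM (0.319 to 8.36) with Diet 6. Of the fish fed Diet 6, 5 were below all fish fed Diet 3, while Diet 6 replicate 4 was the highest of its diet at 8.36 CPM, so that the groups overlapped (log2 fold change -2.17 ± 0.49 SE, adjusted p = 0.0486). This call stood in 2 of the 18 fits without 1 fish. Multiply mapped reads were shared out between contigs by estimate, and how far this touched the split between these related contigs was not tested.

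SLC40A1 ran from 1512 to 4302 CPM (median 2808) with Diet 3 and from 377 to 1675 CPM (median 878) with Diet 6. Of the 9 fish fed Diet 6, 8 were below the lowest fish fed Diet 3. Its log2 fold change was -1.39 ± 0.27 (SE, adjusted p = 0.0260), and it was a DEG in 13 of the 18 fits without 1 fish, the exceptions being those that lacked replicate 8 or 9 of Diet 3 or replicate 2, 8 or 9 of Diet 6 (adjusted p up to 0.0643). Fish fed Diet 1 had a median of 3093 CPM. TfR1 fell from a median of 224.9 CPM (119 to 433) to 113 CPM (52.0 to 156), with -1.08 ± 0.21 (SE) on the log2 scale and an adjusted p of 0.0260. Here the groups overlapped in 4 fish fed Diet 6, while 5 were below all fish fed Diet 3, and it was a DEG in 13 of the 18 fits, the exceptions being those that lacked replicate 1, 2 or 8 of Diet 3 or replicate 3 or 9 of Diet 6 (adjusted p up to 0.0653). Ceruloplasmin fell from a median of 2439 CPM (1631 to 3996) to 1506 CPM (1002 to 1895), with 5 fish fed Diet 6 below all fish fed Diet 3 (log2 fold change -0.85 ± 0.18 SE, adjusted p = 0.0379). Ceruloplasmin was a DEG in 6 of the 18 fits, with an adjusted p of up to 0.0904, and it was not a DEG with the L tag as a covariate (adjusted p = 0.0715).

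No further iron contig passed the test by edgeR with all 18 fish, and the first 3 named here were chosen after their values were seen. Ferritin, middle subunit, a part of the iron store of the cell, had a median of 1985 CPM with Diet 3 and 2265 CPM with Diet 6 (log2 fold change 0.22 ± 0.19 SE, adjusted p = 0.685). Haptoglobin-like, a scavenger of free hemoglobin, had medians of 370 and 254 CPM (log2 fold change -0.64 ± 0.31 SE, adjusted p = 0.373). For erythroferrone-like, named in mammals for a hormone of erythroid cells that lowers hepcidin, the log2 fold change was -0.34 ± 0.28 (SE, adjusted p = 0.650). The warm-temperature-acclimation-related 65-kDa protein, a hemopexin-like plasma protein of fish, had medians of 14270 and 8778 CPM (log2 fold change -0.69 ± 0.16 SE, adjusted p = 0.0544), and it passed the threshold in 10 of 16 other settings of the fit, among them DESeq2 (adjusted p = 0.00286). These settings include the unadjusted p with the fold threshold. The erythroid marker hemoglobin subunit beta-A-like overlapped between the diets, at 7.97 to 71.6 CPM with Diet 3 and 8.92 to 41.2 CPM with Diet 6.

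**Figure D2:**
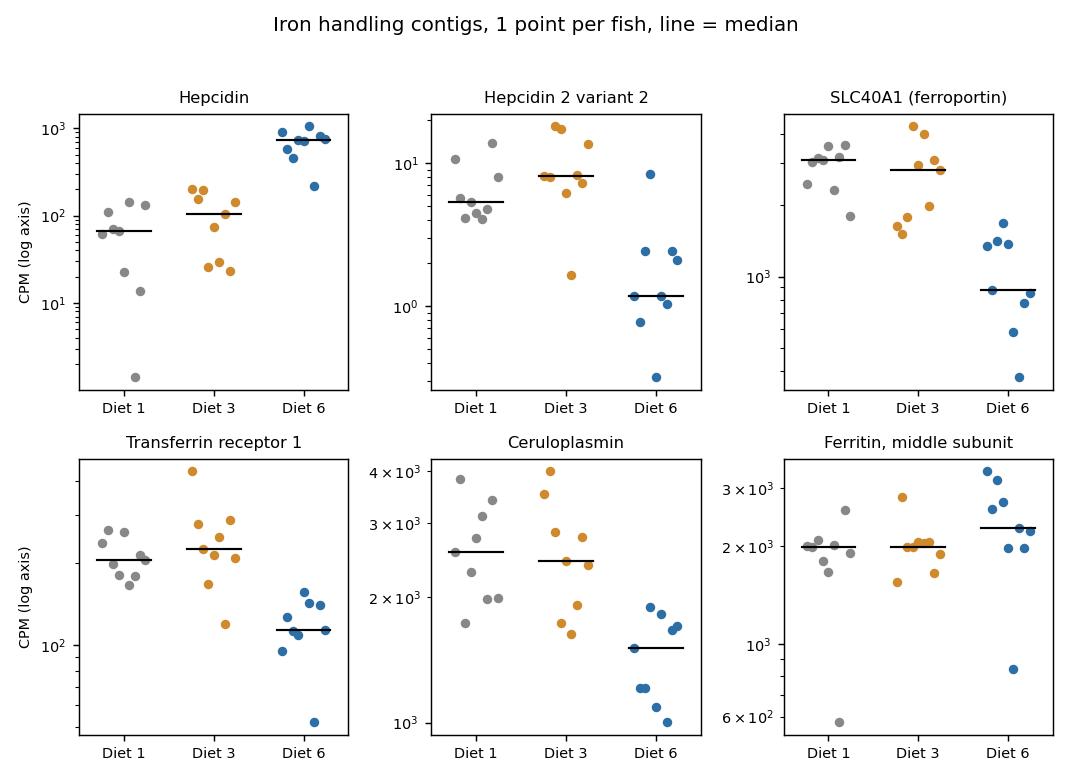
Level of 6 iron contigs in single fish (CPM, log axis) by diet, with the median of each diet as a line and Diet 1 shown for reference. Hepcidin is higher in every fish fed Diet 6 than in any fed Diet 3, while 8 of the 9 fish fed Diet 6 lie below the lowest Diet 3 value of SLC40A1, and ferritin overlaps.

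The smallest adjusted p of the comparison was that of fibroblast growth factor 19 (FGF19), which fell. It lay between 1.59 and 41.7 CPM in fish fed Diet 3 (median 3.87) and between 0 and 0.604 CPM in fish fed Diet 6 (median 0.161), with no overlap. These levels stand for 19 to 345 counts per fish with Diet 3 and for 0 to 11 counts with Diet 6, where 2 fish had none. Within Diet 3, replicates 1, 2, 3 and 8 had 20.1 to 41.7 CPM and the other 5 fish 1.59 to 3.87 CPM, and replicates 1, 2 and 3 share a T tag. The log2 fold change was -5.78 ± 0.77 (SE, adjusted p = 0.00267), and the highest adjusted p over the 18 fits without 1 fish was 0.0129. With counts summed per T tag the adjusted p was 0.271, and with limma and the T tag as a block it was 0.157. Fish fed Diet 1 ran from 0 to 18.2 CPM (median 0.601), which overlapped both diets. Against Diet 1 the log2 fold change was -3.77 for Diet 6 (adjusted p = 0.0389) and 2.05 for Diet 3 (adjusted p = 0.969), comparisons that share the fish of Diet 1.

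Among 14 growth factor and hormone contigs, FGF19 was the only DEG, and 9 had an unadjusted p under 0.05. Over all tested contigs this share was 13.6%, but the 14 were drawn from contigs called in the study on these libraries and can show no excess. With 40 DEGs among the 973 contigs with a name, 1 DEG in a list of this size is near the background. Both contigs of the FGF19 receptor were chosen after their values were seen. Fibroblast growth factor receptor 4-like had a median of 29.8 CPM with Diet 3 and 7.51 CPM with Diet 6 (log2 fold change -1.51 ± 0.40 SE, adjusted p = 0.0868). Fibroblast growth factor receptor 4 had medians of 16.4 and 4.32 CPM (log2 fold change -1.28 ± 0.42 SE, adjusted p = 0.168). Neither passed the test. Insulin-like growth factor II, a target of the RT-qPCR of the study, did not pass either (log2 fold change -0.38 ± 0.15 SE, adjusted p = 0.255).

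Of 7 contigs of cholesterol synthesis and uptake, 2 fell and none rose, and the median log2 fold change was -1.01. DEGs were 40 of the 973 tested contigs with a name. Of the 7, DEGs included, 6 had an unadjusted p under 0.05. Over all tested contigs this share was 13.6%, but the list was drawn from contigs called in the study on these libraries and can show no excess. Neither of the 2 DEGs stood with the L tag as a covariate. HMG-CoA reductase (3-hydroxy-3-methylglutaryl-Coenzyme A reductase), the rate-limiting enzyme of the pathway, ran from 245.4 to 955 CPM (median 312) with Diet 3 and from 96.3 to 282 CPM (median 189) with Diet 6. Of the fish fed Diet 6, 7 were below all fish fed Diet 3 (log2 fold change -1.14 ± 0.26 SE, adjusted p = 0.0496). This call stood in 3 of the 18 fits without 1 fish and in 6 of 16 other settings of the fit. Emopamil-binding protein-like, of the family of the sterol isomerase, fell from a median of 66.1 CPM (40.4 to 117) to 46.6 CPM (28.7 to 52.7), and its groups overlapped (log2 fold change -0.81 ± 0.18 SE, adjusted p = 0.0445). It was listed here by its name alone, its part in the pathway was not tested, and it was a DEG in 7 of the 18 fits. The other members were named after their values were seen. Probable ergosterol biosynthetic protein 28 had medians of 48.2 and 27.5 CPM (log2 fold change -1.17 ± 0.28 SE, adjusted p = 0.0631), and 3-beta-hydroxysteroid-Delta(8),Delta(7)-isomerase, the sterol isomerase itself, had 110.5 and 88.8 CPM (log2 fold change -1.01 ± 0.31 SE, adjusted p = 0.137). Lanosterol 14-alpha demethylase, another enzyme of the same pathway, had medians of 204 and 108 CPM (log2 fold change -1.24 ± 0.34 SE, adjusted p = 0.0909), and lathosterol oxidase-like lay on the other side, at 2.61 and 8.84 CPM (log2 fold change 1.16 ± 0.50 SE, adjusted p = 0.317).

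In glucose and carbon metabolism, fructose-1,6-bisphosphatase 1-like and cytoplasmic malate dehydrogenase fell. Of 9 glucose and glycogen contigs 1 was a DEG, a count near the background of 40 among the 973 with a name. This was fructose-1,6-bisphosphatase 1-like, of gluconeogenesis. It ran from 535 to 1639 CPM (median 986) with Diet 3 and from 238 to 746 CPM (median 339) with Diet 6, and 7 of the fish fed Diet 6 were below all fish fed Diet 3. The change was -1.33 ± 0.27 (SE) on the log2 scale, with an adjusted p of 0.0310, and it was a DEG in 9 of the 18 fits without 1 fish. Mitochondrial phosphoenolpyruvate carboxykinase, another gluconeogenic enzyme, named after its values were seen, had medians of 1469 and 1069 CPM and did not pass (log2 fold change -0.43 ± 0.13 SE, adjusted p = 0.126). Cytoplasmic malate dehydrogenase, which interconverts malate and oxaloacetate, did not overlap between the diets, at 419 to 1137 CPM (median 513) with Diet 3 and 204 to 411 CPM (median 279) with Diet 6. This was -1.02 ± 0.19 (SE) on the log2 scale (adjusted p = 0.0260), and it was a DEG in 13 of the 18 fits.

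Carbonic anhydrase 1, which hydrates carbon dioxide, had the next smallest adjusted p after FGF19 and hepcidin (0.0154). It ran from 83.5 to 715 CPM (median 257) with Diet 3 and from 38.8 to 114 CPM (median 61.8) with Diet 6, and 7 fish fed Diet 6 were below all fish fed Diet 3. The log2 fold change was -2.15 ± 0.35 (SE), and Diet 6 replicate 9 was the only fish without which the adjusted p passed 0.05 (0.0502). Fish fed Diet 1 had a median of 131 CPM, between the diets.

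In the pentose phosphate, malate and inositol list of 9 contigs, sedoheptulokinase rose and cytoplasmic malate dehydrogenase fell. The list was drawn from the 973 tested contigs with a name, of which 40 were DEGs. Sedoheptulokinase, which phosphorylates the sugar sedoheptulose, rose from a median of 45.0 CPM (37.9 to 68.5) to 80.8 CPM (56.9 to 105.6), with 5 fish fed Diet 6 above all fish fed Diet 3 (log2 fold change 0.64 ± 0.14 SE, adjusted p = 0.0486). Sedoheptulokinase was a DEG in 5 of the 18 fits without 1 fish. The NADPH-forming enzymes glucose-6-phosphate 1-dehydrogenase and 6-phosphogluconate dehydrogenase lay higher with Diet 6 without passing the test (both were named after their values were seen), with log2 fold changes of 0.45 ± 0.16 (SE, adjusted p = 0.207) and 1.08 ± 0.33 (SE, adjusted p = 0.136). In the latter, Diet 6 replicate 6 stood at 2635 CPM and the next fish of that diet at 933 CPM. In the whole list 4 contigs lay above 0 and 5 below (median log2 fold change -0.38). Transketolase, also named after its values were seen, had the lowest log2 fold change of the list (-1.48, adjusted p = 0.224).

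Of 17 contigs of the respiratory chain and the mitochondrion, 4 fell and none rose, and 13 had an unadjusted p under 0.05. Over all tested contigs 0.493% were DEGs and 13.6% had an unadjusted p under 0.05. The list was drawn from contigs called in the study on these libraries, so that its counts and their direction are no separate evidence. The median log2 fold change was -0.61. NADH dehydrogenase subunit 5, encoded by the mitochondrial genome, ran from 11070 to 26230 CPM (median 17850) with Diet 3 and from 4927 to 14320 CPM (median 9381) with Diet 6. In 6 fish fed Diet 6 it was below all fish fed Diet 3 (log2 fold change -0.86 ± 0.19 SE, adjusted p = 0.0486). Cytochrome c oxidase subunit II, also of the mitochondrial genome, fell from a median of 18720 CPM (13380 to 21830) to 10760 CPM (5687 to 16500), with 8 fish fed Diet 6 below all fish fed Diet 3 (log2 fold change -0.69 ± 0.16 SE, adjusted p = 0.0496).

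The 3 further genes of the mitochondrial genome on the list, named after their values were seen, did not pass the test. The log2 fold change of cytochrome c oxidase subunit I was -0.77 ± 0.20 (SE, adjusted p = 0.0874), that of NADH dehydrogenase subunit 1 was -0.82 ± 0.23 (SE, adjusted p = 0.0979) and that of NADH dehydrogenase subunit 2 was -0.86 ± 0.24 (SE, adjusted p = 0.1002). Diet 6 replicate 7 was the lowest fish of its diet in NADH dehydrogenase subunits 2 and 5 and in cytochrome c oxidase subunit I, with 4030 CPM in the last against 11780 CPM in the next lowest.

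Among nuclear genes of the list, ATP synthase F(0) complex subunit C2, a part of the proton-conducting ring, fell from a median of 895.5 to 604 CPM (log2 fold change -0.61 ± 0.14 SE, adjusted p = 0.0486). The magnesium transporter MRS2 homolog, of the inner mitochondrial membrane, fell from 6.29 CPM (1.94 to 12.5) to 1.69 CPM (0.549 to 3.35), with 6 fish fed Diet 6 below all fish fed Diet 3 (log2 fold change -1.80 ± 0.36 SE, adjusted p = 0.0310). HIG1 domain family member 1A, a hypoxia-inducible mitochondrial protein in mammals and named after its values were seen, lay on the other side (log2 fold change 1.07 ± 0.29 SE, adjusted p = 0.0961). Without 1 fish, the call of NADH dehydrogenase subunit 5 stood in 4 of the 18 fits, and those of cytochrome c oxidase subunit II and of subunit C2 in 3 each. With the L tag as a covariate NADH dehydrogenase subunit 5, cytochrome c oxidase subunit II and the MRS2 homolog were not DEGs, and subunit C2 was. The libraries were made from poly(A) RNA, and levels of mitochondrial transcripts depend on that selection.

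**Figure D3:**
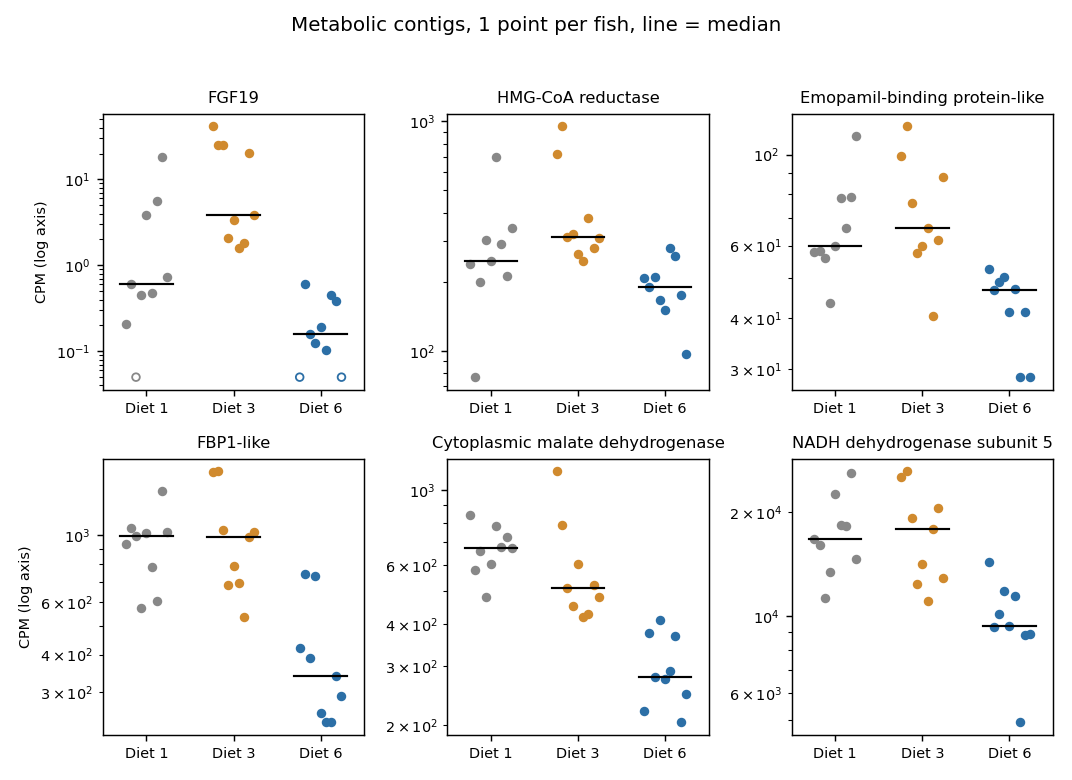
Level of 6 metabolic contigs in single fish (CPM, log axis) by diet, with the median of each diet as a line and open points at the foot of the axis for fish with a value of 0. FGF19 and cytoplasmic malate dehydrogenase do not overlap between Diet 3 and Diet 6, while HMG-CoA reductase, emopamil-binding protein-like, FBP1-like (fructose-1,6-bisphosphatase 1-like) and NADH dehydrogenase subunit 5 overlap and have lower medians in fish fed Diet 6.

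Of 13 contigs of glutathione synthesis, recycling and use, 1 rose and none fell, 9 had a log2 fold change above 0 and 8 had an unadjusted p under 0.05. With 40 DEGs among the 973 contigs with a name, 1 in a list of this size is near the background. Over all tested contigs 13.6% had an unadjusted p under 0.05, but a list drawn from contigs called in the study can show no excess. The DEG of this list was the regulatory subunit of glutamate-cysteine ligase, which raises the activity of the catalytic subunit. It ran from 16.6 to 81.98 CPM (median 53.5) with Diet 3 and from 67.2 to 182 CPM (median 115.9) with Diet 6, with 7 fish fed Diet 6 above all fish fed Diet 3. Its change on the log2 scale was 1.21 ± 0.26 (SE, adjusted p = 0.0392), and it was a DEG in 8 of the 18 fits without 1 fish. Fish fed Diet 1 ran from 14.8 to 51.7 CPM, so that no fish fed Diet 6 overlapped them, and the log2 fold change of Diet 6 against Diet 1 was 1.82 (adjusted p = 0.000116).

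The other enzymes of synthesis and recycling, named after their values were seen, did not pass the test against Diet 3. Glutathione synthetase, which completes the tripeptide, had medians of 25.5 CPM with Diet 3 and 39.3 CPM with Diet 6 (log2 fold change 0.80 ± 0.22 SE, adjusted p = 0.0961). The catalytic subunit of glutamate-cysteine ligase had medians of 34.2 and 47.1 CPM (log2 fold change 0.53 ± 0.22 SE, adjusted p = 0.289). Glutathione reductase, which returns oxidised glutathione to its reduced form, had medians of 104 and 137 CPM (log2 fold change 0.59 ± 0.18 SE, adjusted p = 0.135). For glutathione S-transferase omega-1, a target of the RT-qPCR, the log2 fold change was 0.54 ± 0.21 (SE, adjusted p = 0.259).

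Among 17 contigs of detoxification and redox, 1 rose, a count near the background of 40 DEGs among the 973 contigs with a name. Multidrug resistance-associated protein 9 (MRP9), an ABC transporter, ran from 0 to 2.61 CPM (median 0.874) with Diet 3 and from 3.42 to 13.8 CPM (median 5.71) with Diet 6, with no overlap. Its log2 fold change was 2.62 ± 0.44 (SE, adjusted p = 0.0192), and Diet 6 replicate 9 was the only fish without which it was not a DEG (adjusted p = 0.0596). Counts per fish were 0 to 34 with Diet 3 and 39 to 252 with Diet 6. Fish fed Diet 1 had a median of 0.618 CPM and a highest value of 3.14 CPM, also below every fish fed Diet 6.

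Of contigs named as chaperones or heat shock proteins among the DEGs, clusterin and heat shock protein 30-like rose. Clusterin, a secreted chaperone, ran from 6.29 to 145 CPM (median 50.2) with Diet 3 and from 61.2 to 701 CPM (median 282) with Diet 6, with 7 fish fed Diet 6 above all fish fed Diet 3. On the log2 scale it rose by 2.67 ± 0.58 (SE), with an adjusted p of 0.0461. It was a DEG in only 2 of the 18 fits without 1 fish, with an adjusted p of up to 0.0885, yet it was the DEG when counts were summed per T tag (adjusted p = 0.0422). Heat shock protein 30-like, of the small heat shock proteins, ran from 0 to 0.794 CPM (0 to 10 counts) with Diet 3 and from 0.557 to 3.51 CPM (9 to 43 counts) with Diet 6 (log2 fold change 2.67 ± 0.59 SE, adjusted p = 0.0486). Heat shock protein 30-like was a DEG in 5 of the 18 fits without 1 fish and not when the libraries of Diet 1 were fitted as well. It was a DEG in 7 of 13 other settings of the fit in which it was tested.

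Contig GAZY01110915.1 has no name in the tables of DEGs, and a list of RT-qPCR targets of the study gives this identifier as heat shock protein 70, although identifiers of some other targets differ between those tables. It lay between 0 and 0.873 CPM (0 to 9 counts) with Diet 3 and between 1.03 and 4.18 CPM (18 to 66 counts) with Diet 6, with no overlap (log2 fold change 2.15 ± 0.39 SE, adjusted p = 0.0259). In fish fed Diet 1 it ran from 0 to 9.08 CPM (median 0.618) and heat shock protein 30-like from 0 to 22.3 CPM (median 0.352). Both ranges overlapped Diet 6, while both medians lay below the lowest fish fed Diet 6. Neither contig was a DEG of Diet 6 against Diet 1 (adjusted p = 0.862 and 0.682). No contig of endoplasmic reticulum folding and export was a DEG among 16 tested by edgeR, with 11 at an unadjusted p under 0.05, 8 above 0 and 8 below. Over all tested contigs 13.6% had an unadjusted p under 0.05. The 16 were drawn from contigs called in the study on these libraries and can show no excess. Protein disulfide-isomerase, the member of that list with the smallest p, had medians of 1153 CPM with Diet 3 and 825 CPM with Diet 6. Its log2 fold change was -0.66 ± 0.16 (SE, adjusted p = 0.0625), and it passed the threshold in 7 of 16 other settings of the fit. These settings include the unadjusted p with the fold threshold. The 78 kDa glucose-regulated protein, the main chaperone of that compartment and named after its values were seen, had medians of 75.4 and 82.2 CPM, and single fish fed Diet 6 reached 506 CPM (log2 fold change 1.01 ± 0.41 SE, adjusted p = 0.285).

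**Figure D4:**
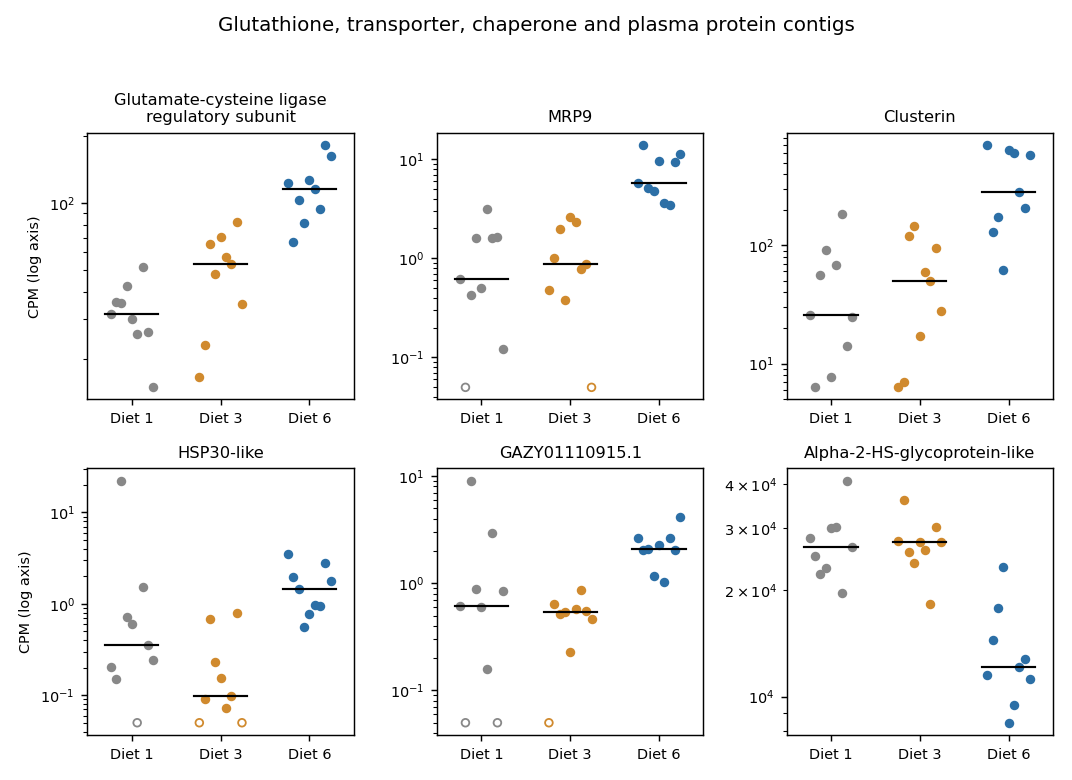
Level of 6 contigs in single fish (CPM, log axis) by diet, with the median of each diet as a line and open points at the foot of the axis for fish with a value of 0. MRP9 and GAZY01110915.1 do not overlap between Diet 3 and Diet 6. Heat shock protein 30-like and GAZY01110915.1 in Diet 6 lie within the range of Diet 1 but above its median.

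Among abundant plasma proteins, alpha-2-HS-glycoprotein-like fell. This fetuin ran from 18340 to 35930 CPM (median 27320) with Diet 3 and from 8432 to 23330 CPM (median 12120) with Diet 6, and 8 fish fed Diet 6 were below all fish fed Diet 3. Its change on the log2 scale was -1.02 ± 0.18 (SE, adjusted p = 0.0192), and it was a DEG in each of the 18 fits but that without Diet 6 replicate 9 (adjusted p = 0.06003). It was the only DEG among the 8 hepatocyte markers, of which all lay below 0 (median log2 fold change -0.63) and 7 had an unadjusted p under 0.05. Over all tested contigs 13.6% had an unadjusted p under 0.05. The markers were drawn from contigs called in the study on these libraries and can show no excess. Complement C5, of the terminal complement pathway, had medians of 7942 and 5084 CPM (log2 fold change -0.62 ± 0.14 SE, adjusted p = 0.0529), and secreted phosphoprotein 24 had 9001 and 6557 CPM (log2 fold change -0.64 ± 0.16 SE, adjusted p = 0.0707). The summed level of the 8 markers ran from 51030 to 83050 CPM with Diet 3 and from 26500 to 57300 CPM with Diet 6. With the mean log2 CPM of these markers as a covariate, chosen after the data were seen, no contig was a DEG by edgeR, and 731 had an unadjusted p under 0.05 against 1354 without it. Since this covariate nearly divides the diets, the share of the diet and of the markers in the DEGs cannot be told apart by that fit.

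Saxitoxin and tetrodotoxin-binding protein 1-like, a plasma protein of fish, fell from a median of 401 CPM (256 to 749) to 160 CPM (84.4 to 282.5), with 8 fish fed Diet 6 below all fish fed Diet 3 (log2 fold change -1.38 ± 0.25 SE, adjusted p = 0.0212). Lysozyme C, an enzyme that cleaves bacterial cell walls, fell from 36550 CPM (29980 to 42980) to 22670 CPM (17700 to 31630), with 8 fish fed Diet 6 below all fish fed Diet 3 (log2 fold change -0.65 ± 0.12 SE, adjusted p = 0.0260). It was listed with 6 other markers of macrophages and neutrophils, of which none was a DEG, and it held nearly all of the summed level of that list (30050 to 43030 CPM with Diet 3 and 17770 to 31680 CPM with Diet 6). An abundant DEG without a name and chosen after its values were seen, GAZY01149803.1, had medians of 60720 CPM with Diet 3 and 39160 CPM with Diet 6 (log2 fold change -0.65 ± 0.13 SE, adjusted p = 0.0310).

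Several DEGs belonged to none of these groups. Nuclear receptor-interacting protein 2 rose from a median of 9.49 CPM (6.84 to 13.3) to 37.0 CPM (6.75 to 57.5), with 7 fish fed Diet 6 above and 1 below all fish fed Diet 3 (log2 fold change 1.68 ± 0.30 SE, adjusted p = 0.0212). Neuropeptide B, a ligand of G protein-coupled receptors, did not overlap, at 1.37 to 3.30 CPM with Diet 3 and 3.66 to 6.53 CPM with Diet 6 (log2 fold change 0.94 ± 0.18 SE, adjusted p = 0.0305). Lambda-crystallin homolog, a dehydrogenase of the glucuronate pathway in mammals, rose from a median of 182 to 385 CPM, with 7 fish fed Diet 6 above all fish fed Diet 3 (log2 fold change 1.04 ± 0.20 SE, adjusted p = 0.0260). Also higher were methyltransferase-like protein 24 (log2 fold change 1.12 ± 0.24 SE, adjusted p = 0.0419) and lysophosphatidic acid receptor 4 (log2 fold change 1.32 ± 0.30 SE, adjusted p = 0.0496), whose medians with Diet 6 were 7.53 and 10.95 CPM. These last contigs were DEGs in 7 and 4 of the 18 fits without 1 fish, and neither was a DEG with the L tag as a covariate.

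Of 11 amino acid and nitrogen contigs 1 was a DEG, a count near the background of 40 among the 973 with a name. This was kynurenine/alpha-aminoadipate aminotransferase, of tryptophan and lysine breakdown, which fell. Its medians were 35.6 CPM (27.6 to 52.4) with Diet 3 and 23.5 CPM (18.2 to 31.4) with Diet 6, with 8 fish fed Diet 6 below all fish fed Diet 3 (log2 fold change -0.71 ± 0.13 SE, adjusted p = 0.0260). Mitochondrial glutamate dehydrogenase, which releases ammonia from glutamate, was named after its values were seen and had medians of 1865 and 990 CPM without passing the test (log2 fold change -0.66 ± 0.22 SE, adjusted p = 0.174). The ammonium transporter Rh type B-like, named after its values were seen, rose from 41.1 to 68.0 CPM (log2 fold change 0.74 ± 0.16 SE, adjusted p = 0.0461). This transporter was a DEG in 5 of the 18 fits without 1 fish.

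A further pair of contigs that fell did not overlap between the diets, the high-affinity choline transporter 1-like (1.08 to 2.38 CPM against 0.386 to 0.926 CPM, log2 fold change -1.30 ± 0.26 SE, adjusted p = 0.0310) and DENN domain-containing protein 1B (4.12 to 7.15 CPM against 0.901 to 4.11 CPM, log2 fold change -1.17 ± 0.26 SE, adjusted p = 0.0486). They were DEGs in 8 and 3 of the 18 fits without 1 fish. SAM domain-containing protein SAMSN-1-like, of an adaptor family of lymphocytes in mammals, fell from a median of 11.6 to 5.55 CPM, and 1 fish fed Diet 3 reached 53.1 CPM (log2 fold change -1.74 ± 0.39 SE, adjusted p = 0.0486). SAMSN-1-like was a DEG in 5 of the 18 fits without 1 fish. Among DEGs without a name, GAZY01103467.1 rose (log2 fold change 1.14 ± 0.21 SE, adjusted p = 0.0260), and GAZY01134540.1 and GAZY01124496.1 fell (log2 fold changes -1.06 ± 0.22 and -0.88 ± 0.20 SE, adjusted p = 0.0379 and 0.0496). For GAZY01159246.1, also lower and chosen after its values were seen, the level in fish fed Diet 3 ran from 0 to 14.03 CPM (median 0.238), 8 of the 9 fish fed Diet 6 had no count, and replicate 1 of Diet 3 alone stood at the highest value, the next being 1.03 CPM. Of the 10 remaining DEGs, 6 rose by 0.62 to 0.79 on the log2 scale, among them nuclear receptor subfamily 2 group F member 6, a transcription factor, and 4 fell by 0.63 to 0.87, among them pleckstrin homology domain-containing family G member 3 (both named after their values were seen).

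DEGs made up 0.493% of all tested contigs and were 40 of the 973 with a name. A count of 0 or 1 in lists of this size is thus near the background and is no result about their members. The counts at an unadjusted p stand against 13.6% of all tested contigs, and a share among named contigs alone was not taken. Of all tested contigs 51.7% lay above 0. Members of these lists were called in the study on these libraries, so that their directions are no separate evidence. No DEG was found by edgeR among contigs of fatty acid and triglyceride synthesis (0 of 16, 3 at an unadjusted p under 0.05), fatty acid oxidation and lipolysis (0 of 12, 5 at an unadjusted p under 0.05), lipoproteins and lipase (0 of 6, 0 at an unadjusted p under 0.05) or one-carbon and creatine metabolism (0 of 9, 4 at an unadjusted p under 0.05). The same held for the proteasome (0 of 8, with 7 above 0 and 5 at an unadjusted p under 0.05), for the cell cycle and DNA replication (0 of 28, with 22 below 0 and 3 at an unadjusted p under 0.05) and for the immune contigs that the study listed for Diet 5 (0 of 28, with 20 above 0 and 7 at an unadjusted p under 0.05). It also held for brush border enzymes and junctions (0 of 6, 1 at an unadjusted p under 0.05) and for the circadian clock (0 of 4, 2 at an unadjusted p under 0.05). Of 12 contigs taken as RT-qPCR targets, among which GAZY01110915.1 was not counted, 1 was a DEG, hepcidin, and the other 11 had log2 fold changes of -1.25 to 1.74. Olfactory marker protein had medians of 1.99 and 9.53 CPM with Diets 3 and 6 (log2 fold change 1.74 ± 0.47 SE, adjusted p = 0.0909).

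**Figure D5:**
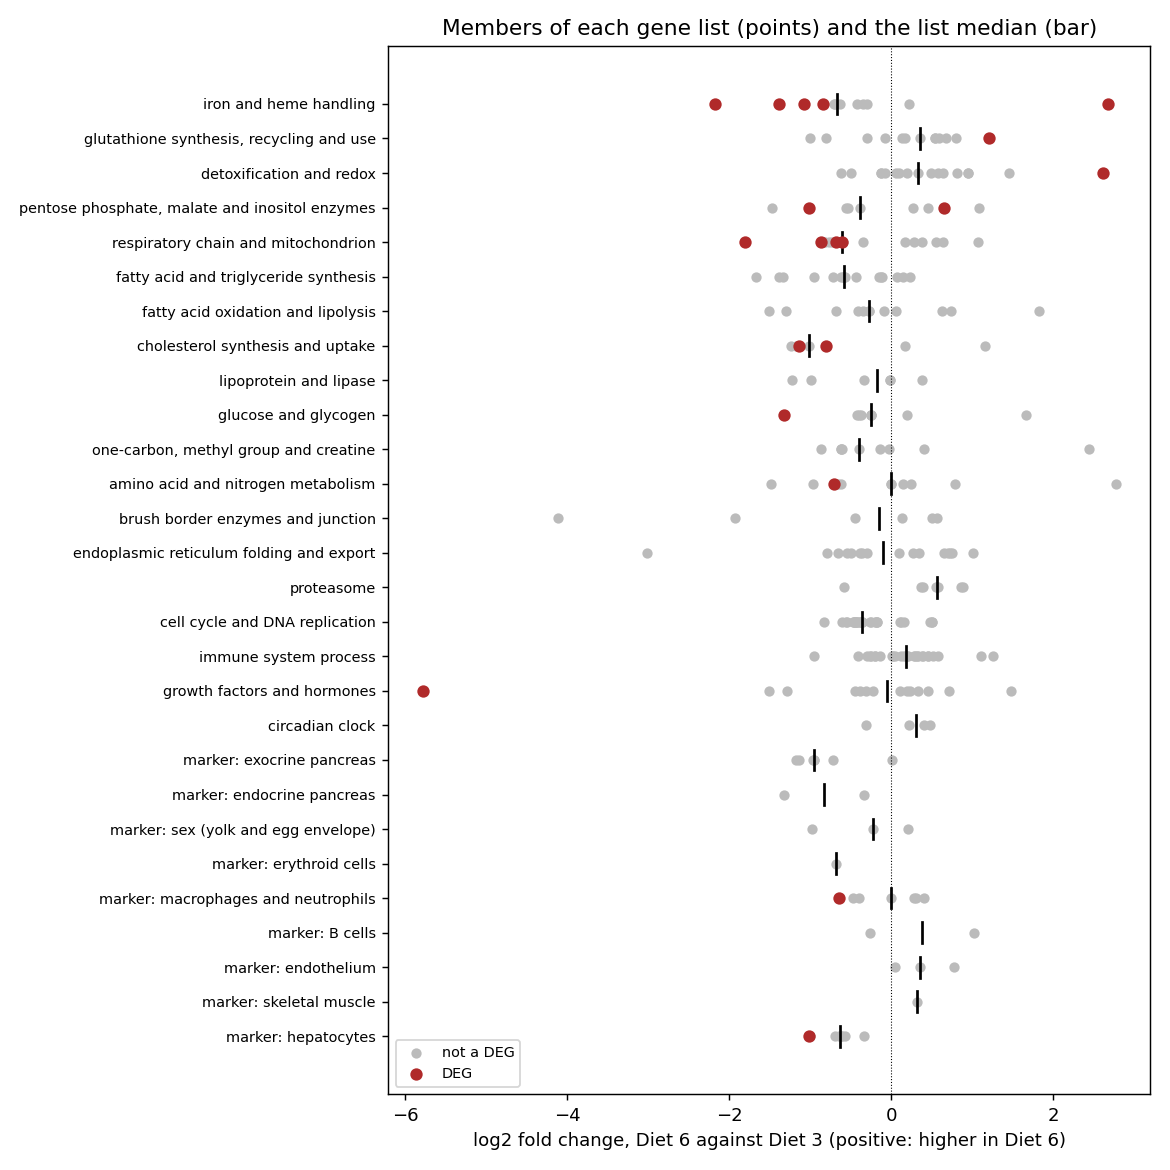
Log2 fold change of Diet 6 against Diet 3 (x axis) for each member of the gene and marker lists (y axis), with DEGs in red, other contigs in grey and the list median as a bar. The DEGs of iron handling lie on both sides of 0, those of the respiratory chain and of cholesterol synthesis lie below 0, and all hepatocyte markers lie below 0.

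Markers of other cells were checked beside these results. The 7 markers of the exocrine pancreas, which is scattered in the liver of many fishes, held no DEG (0 at an unadjusted p under 0.05), but their summed level ranged widely, from 1473 to 132400 CPM with Diet 3 (median 41700) and from 87.5 to 69550 CPM with Diet 6 (median 22450). In 3 fish fed Diet 6 their mean log2 CPM was below that of every fish fed Diet 3, and with this mean as a covariate 129 contigs were DEGs, 43 of them among the 49. The 3 endothelial, 2 B cell, 2 endocrine pancreas and 3 yolk and egg envelope markers held no DEG either, with 1, 1, 0 and 1 at an unadjusted p under 0.05, nor did the lone markers of erythroid cells and of skeletal muscle (0 at an unadjusted p under 0.05). Summed levels of the endothelial markers were 28.4 to 52.9 CPM with Diet 3 and 39.4 to 59.5 CPM with Diet 6, and those of the B cell markers were 16.2 to 35.03 CPM and 8.97 to 49.0 CPM. The part of these cells in the results was not tested beyond the exocrine covariate.

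With standard fish meal as the common reference, 1.14% of 9783 contigs were DEGs of Diet 6 against Diet 1, 57 higher (0.583%) and 55 lower (0.562%). By the same test none of 9339 contigs was a DEG of Diet 3 against Diet 1, where 466 (4.99%) had an unadjusted p under 0.05 and the smallest adjusted p was 0.892. Both comparisons share the fish of Diet 1 and are given side by side. Only edgeR was used here for them, while the study, with DESeq2, did call contigs between Diets 3 and 1. Between Diets 6 and 3 DESeq2 called 157 contigs and edgeR 49. How far the absence of DEGs between Diets 3 and 1 depends on the tool was not tested. For SLC40A1 the log2 fold changes were -1.52 for Diet 6 (adjusted p = 0.00127) and -0.13 for Diet 3 (adjusted p = 0.998), and for hepcidin they were 3.28 (adjusted p = 0.00260) and 0.62 (adjusted p = 0.998). For carbonic anhydrase 1 they were -1.03 (adjusted p = 0.0421) and 1.12 (adjusted p = 0.927). For HMG-CoA reductase they were -0.62 (adjusted p = 0.298) and 0.53 (adjusted p = 0.998). This contig passed the test only between Diets 6 and 3, and that call was lost when the libraries of Diet 1 were fitted as well.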

How the data were processed

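Liver RNA of 54 white bass was sequenced as poly(A)-selected stranded libraries, 1 per fish and 9 per diet, and the 9 libraries of Diet 6 and the 9 of Diet 3 were compared here. The deposited values are estimated counts per contig, written as whole numbers, which the authors made by trimming reads (Trim Galore 0.6.5, cutadapt 2.7), aligning them to a white bass transcriptome (Bowtie2 2.3.4.1) and sharing out multiply mapped reads (eXpress 1.5.1), with versions as the processing notes of the submitters give them. Those notes also name DESeq2 1.24.0, and the results of the tests of the study were not used. Names were taken from the tables of DEGs of the study, with no coordinates. No contig or protein sequence is given, since none was used here.

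Contigs whose mean count reached 5 over the 18 libraries were tested in edgeR 4.0.16 by its quasi-likelihood F-test (R 4.3.3, TMM scaling, Benjamini-Hochberg adjustment over all tested contigs, no covariate). The SE of a log2 fold change was derived from the F value. CPM were scaled by TMM over 53 libraries, leaving out 1 of Diet 5 with 755 counts in all. The mean log2 CPM of markers was scaled by TMM over the 18 libraries compared, and log2 CPM used a prior count of 0.5. Fish of 1 tank are not independent, so that p-values over fish measure the spread between fish and may be too small. The number of counts limits precision at low levels, and intervals for tank cannot be had since the T tag is not explained.

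Groups came from the diet labels. Named contigs were the 10 DEGs that rose most and the 10 that fell most, provided that 5 or more fish of the higher diet had 10 counts, the 5 with the smallest p, every DEG of a list or else its member with the smallest p, the RT-qPCR targets and markers, and by ID the 2 unnamed DEGs with the largest rise and fall under the same floor. Others are named as chosen after their values were seen. The members and lists were chosen with earlier results of these data known. Alternatives were other scalings, filters, tools (DESeq2 1.42.0, limma 3.58.1), fitted samples, blocks and covariates, and leaving out each fish.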

Additional observations from a re-analysis of the deposited data

Results flagged for a closer look

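Of 200 groups of 9 fish tested, each a contig or the library total within a diet, 19 had a fish that stood apart from the others by Dixon's test, where chance gives about 1 in 20. Contigs were tested on log2 CPM, so that a fish at or near 0 can be flagged though its gap in CPM is small. In Diet 6, replicate 7 accounted for 5 of them, all as the lowest fish. They were NADH dehydrogenase subunit 5 (4927 CPM, next 8785), NADH dehydrogenase subunit 2 (389.2 CPM, next 979), cytochrome c oxidase subunit I (4030 CPM, next 11780), transferrin receptor protein 1 (51.95 CPM, next 94.8) and interleukin-6 receptor subunit beta-like (8.291 CPM, next 17.12). Replicate 6 of Diet 6 was the highest in 26S proteasome non-ATPase regulatory subunit 11B (55.55 CPM, next 22.65) and in 6-phosphogluconate dehydrogenase (2635 CPM, next 933) and the lowest in ferritin, middle subunit (837.4 CPM, next 1963). Replicate 5 was the lowest in mitochondrial phosphoenolpyruvate carboxykinase (662.2 CPM, next 996.5), and replicate 8 was the only fish of Diet 6 with counts of GAZY01159246.1 (0.1287 CPM).

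In Diet 3, replicate 7 was the lowest in complement C5 (5125 CPM, next 7267) and in heparin cofactor 2 (3146 CPM, next 4710). Replicate 1 was the lowest in glutathione synthetase (9.436 CPM, next 22.5) and in GAZY01110915.1 (0 CPM, next 0.2304), and replicate 9 in multidrug resistance-associated protein 9 (0 CPM, next 0.3841) and in MHC class II antigen beta chain (0 CPM, next 0.3629). Replicate 2 was the lowest in S-adenosylmethionine synthase (0 CPM, next 0.3516) and the highest in ferritin, middle subunit (2821 CPM, next 2058), and replicate 6 was the lowest in hepcidin 2 variant 2 (1.661 CPM, next 6.145).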

How the results depend on the processing

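The number of DEGs between Diets 6 and 3 (49, 20 higher and 29 lower) moved by more than 1.5 times in many settings. No DEG changed its sign in the 18 fits without 1 fish or in the 16 settings planned beside them. The DEGs were selected by their difference over these same fish, so that their constant sign is no separate support. The settings with no fold threshold and with unadjusted p keep the log2 fold changes of the main fit. The number was 157 (63 higher, 94 lower) with DESeq2 and 168 (74 and 94) without its independent filtering, 18 (7 and 11) with no filter on low counts, 113 (41 and 72) in a fit of all 54 libraries, 26 (10 and 16) with the L tag as covariate, 129 (48 and 81) with the exocrine marker score, and 514 (235 and 279) at unadjusted p with the fold threshold. In the fit with Diet 1 the DEGs lower in Diet 6 were 44. With counts summed per T tag it was 1 (1 and 0), and with limma and the T tag as a block it was 58 (21 and 37). With the hepatocyte marker score and without both Diet 6 replicates 1 and 7, settings added after the data were seen, it was 0 (0 and 0) and 8 (5 and 3). With the replicate block it was 4 (0 higher, 4 lower). Correlations of same-numbered fish ran from -0.25 to 0.18, 3 of 9 passed 0.1 and 0 fish correlated best with their own number. Same-numbered fish of both diets share an L tag, so that these correlations cannot show that the numbers carry no pairing. Leaving out 1 fish gave 2 to 120 DEGs (1 to 44 higher, 1 to 76 lower), and 5 of the 18 counts were within 1.5 times of 49. Of the 49, 26 were DEGs with the L tag as covariate, 18 with no filter on low counts and 45 with DESeq2. The cause of these differences was not tested. Some RT-qPCR targets, none of them a DEG, changed sign. The log2 fold change of 40S ribosomal protein S19 was 0.025 with the exocrine score. That of CXCR2-like was 0.037 with the replicate block, 0.047 with limma and the T tag block, 0.027 with the exocrine score and -0.30 to 0.42 without 1 fish. That of WD repeat and HMG-box DNA-binding protein 1 was -0.24 with the replicate block, -0.12 with limma and the T tag block and -0.13 to 0.33 without 1 fish, and that of dipeptidyl peptidase 4-like was -0.047 to 0.40 without 1 fish. Counts of 0 to 11 in Diet 6, as in fibroblast growth factor 19, limit the precision of large falls.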
